A study of Mus musculus with 16 samples.

Results

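The genes described here are 36 named heat shock proteins and chaperones, most of them cytosolic. Every non-control probe whose gene name in the scanner files equalled one of these names was taken, whatever its signal. A probe was found for 35 of the 36 names, with 55 probes in all, out of 34821 gene names and 55681 probes on the arrays. All 55 probes passed the filter on dim probes, so 35 chaperone genes stood among the 23032 genes tested, and 54 of the 55 probes were well above background on all 16 arrays. Hspa1b had no probe under its own name. The accessions listed with the Hspa1a probe belong to Hspa1a and Hspa1b, so its values stand for both inducible HSP70 genes together.

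RNA from the whole brain of male C57BL/6J mice was hybridised to 16 Agilent arrays in 1 colour (Cy3). The mice lacked or carried Slc5a8, which encodes a sodium-coupled carrier of monocarboxylates such as lactate and pyruvate. The groups were Slc5a8-deficient at 18 months, Slc5a8-deficient at 4 months, wild type at 18 months and wild type at 4 months, with 4 arrays in each, and the design text calls them biological replicates. The labels name the deficient animals without saying which stretch of the gene was removed, in which cells, or how the allele was made, and they name no treatment.

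Chaperones bind unfolded stretches of other proteins and let them fold or hand them to degradation. HSP70 proteins work in cycles driven by ATP, in which J-proteins deliver the client and start ATP hydrolysis while HSP110 and BAG proteins release the nucleotide. Small heat shock proteins hold unfolded clients without ATP, HSP90 matures kinases and hormone receptors with a set of cochaperones, and ring-shaped chaperonins enclose their clients. Under protein stress, heat shock factors bind repeated GAA units in the promoters of many of these genes.

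The probes of the members on which the results turn are shown so that the measured stretch of each transcript can be seen. Coordinates are those of the scanner files (NCBI37/mm9). The probes of Cryab lie on the plus strand at chr9:50561458-50561517 and chr9:50564566-50564625. The probe shared by Hspa1a and Hspa1b lies on the minus strand at chr17:35107117-35107176, and that of Dnajb4 on the minus strand at chr3:151849464-151849523. Both Dnajb6 probes shown lie on the plus strand, at chr5:30077544-30078952, where the 60 bases span 1409 bases of genome, and at chr5:30080099-30080158. They start at positions 376 and 500 of the transcript.
Cryab, first probe: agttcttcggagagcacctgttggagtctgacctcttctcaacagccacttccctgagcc
Cryab, second probe: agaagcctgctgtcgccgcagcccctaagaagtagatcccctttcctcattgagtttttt
Hspa1a and Hspa1b: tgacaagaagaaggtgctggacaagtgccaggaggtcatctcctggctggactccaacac
Dnajb4: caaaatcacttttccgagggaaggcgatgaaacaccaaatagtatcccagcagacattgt
Dnajb6, position 376: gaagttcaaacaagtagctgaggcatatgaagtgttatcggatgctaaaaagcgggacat
Dnajb6, position 500: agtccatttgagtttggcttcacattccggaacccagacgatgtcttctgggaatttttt

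Promoters were searched because many of the members are known for heat shock elements. The motif was GAANNTTC or TTCNNGAA, each of which reads the same on both strands, in the 250 bases before a RefSeq start (GRCm38.p6). A promoter was found for 29 of the 36 members, and 13 of them (44.8%) held the motif, against 14.5% of 27025 genes of the same table. The longer 13-base form, GAANNTTCNNGAA or TTCNNGAANNTTC, overlaps the shorter one and was found in 3 of the 29 members (10.3%), namely Dnajb6, Hspd1 and Hspe1, against 0.514% of all genes. Cryab, Dnajc5, Hsf1, Hsp90aa1, Hsp90ab1, Hspa8 and Hspa9 were not matched. The promoters of Hspa1a, Hspb1 and Dnaja1 are shown with the motif in capitals, as examples of an inducible HSP70, a small heat shock protein and a J-protein whose levels are described below. They lie at chr17:34972157-34972406 on the minus strand, chr5:135887669-135887918 on the plus strand and chr4:40722218-40722467 on the plus strand.
Hspa1a promoter: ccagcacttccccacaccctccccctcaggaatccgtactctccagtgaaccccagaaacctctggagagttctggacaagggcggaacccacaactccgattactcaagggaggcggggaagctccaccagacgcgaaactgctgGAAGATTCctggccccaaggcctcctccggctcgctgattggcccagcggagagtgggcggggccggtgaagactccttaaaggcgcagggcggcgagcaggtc
Hspb1 promoter: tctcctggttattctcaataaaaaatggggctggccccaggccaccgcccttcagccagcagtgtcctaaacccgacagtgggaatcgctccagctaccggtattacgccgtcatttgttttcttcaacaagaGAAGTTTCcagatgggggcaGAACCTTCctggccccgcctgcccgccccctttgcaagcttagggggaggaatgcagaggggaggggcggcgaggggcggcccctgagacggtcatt
Dnaja1 promoter: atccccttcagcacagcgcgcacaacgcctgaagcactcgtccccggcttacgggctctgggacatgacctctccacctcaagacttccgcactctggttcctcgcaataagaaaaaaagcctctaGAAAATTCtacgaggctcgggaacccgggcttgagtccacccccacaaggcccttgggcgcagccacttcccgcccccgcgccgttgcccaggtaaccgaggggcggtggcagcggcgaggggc

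A level below is the log2 processed signal of a probe after the 75th percentile of its array was subtracted. Differences between groups are on the same log2 scale, with the SE of a limma model of all 4 groups (n = 4 in each). The words rose, fell and called are kept for differences with an adjusted p under 0.05 (Benjamini-Hochberg, over all genes tested in that contrast). On each array 59305 spots were no controls, and between 58.4% and 66.1% of them exceeded background clearly by the scanner software's flag. The p-values reflect the variation among these samples only, and the number of arrays limits the precision. The Slc5a8 probe, at position 4958 of the transcript, exceeded background on 0 of the 16 arrays and so gives no check of the genotype labels. Deficient and wild-type arrays lay on separate slides, and slide and genotype cannot be told apart. Within each slide the 18-month and the 4-month animals filled separate lines of 4 arrays, so age and position cannot be told apart within a genotype. Replicate 1 of the 4-month deficient mice stood apart, at 97.2 on the first principal component (29.5% of the variance) against -26.2 to 26.5 for the other 15 arrays. It had the lowest of the 16 levels for 14 of the 35 chaperone genes and the highest for 7. Its 75th percentile of signal, 626, was the lowest of all arrays. Its deviations correlated at 0.65 with wild-type replicate 2 at 18 months and at 0.62 with wild-type replicate 4 at 4 months. On the first principal component these wild-type arrays lay at 26.5 and 26.1. All markers of neurons, astrocytes, oligodendrocytes, microglia and endothelium that were looked up were well above background on all 16 arrays. In bulk tissue, fewer cells of a type and less RNA per cell cannot be told apart.

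**Figure D1:**
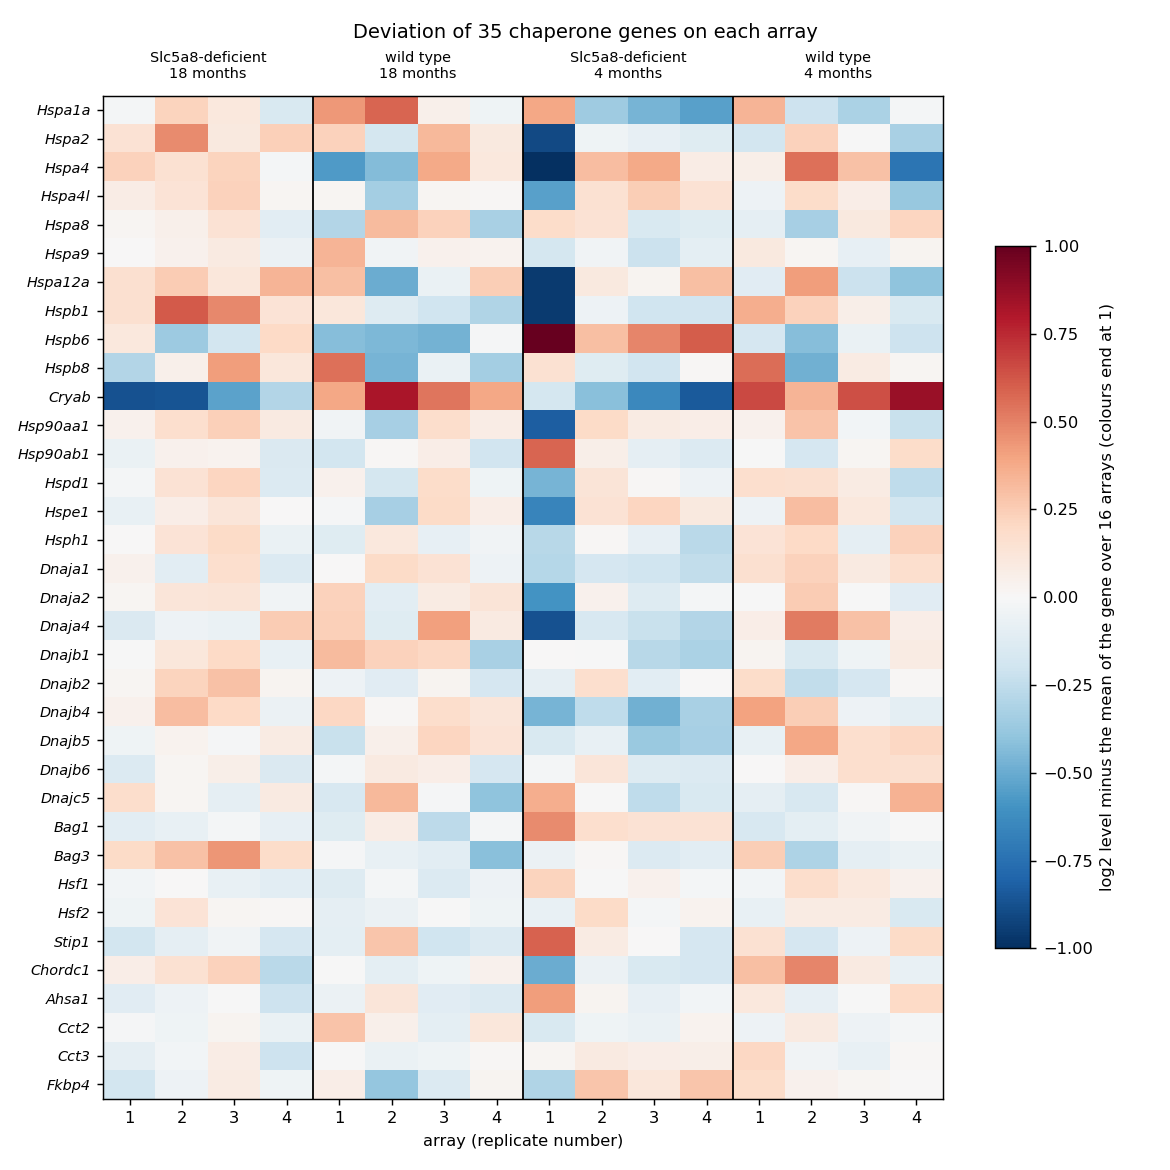
Deviation of each of the 35 chaperone genes (down the page) from its own mean over the 16 arrays (across), in log2 units, with red above and blue below the mean and the 4 groups side by side. Cryab is blue on all 8 deficient arrays and red on all 8 wild-type arrays, and replicate 1 of the 4-month deficient mice has the lowest level for 14 genes and the highest for 7.

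The first comparison asked how the chaperones of Slc5a8-deficient brains differ from those of wild-type brains at each age. Cryab, which encodes the small heat shock protein alphaB-crystallin, fell at 18 and at 4 months and lay below its wild-type range on all 8 deficient arrays. Hspb6, the small heat shock protein HSP20, rose at 4 months, when the J-protein gene Dnaja1 fell. The main HSP70 and HSP90 genes, the chaperonins and the heat shock factors did not pass the test at either age. At 18 months 1 of 35 members fell and 0 rose, where 338 of 23032 genes (1.47%) were called in either direction. At 4 months 1 rose and 2 fell, where 353 genes (1.53%) were called. Averaged over both ages 1 rose and 1 fell, where 734 genes (3.19%) were called. The interaction of age and genotype called 0 of the 35 members by limma, where 43 of all genes (0.187%) were called. At an unadjusted p under 0.05 the interaction was positive for 7 members and negative for 2, where 10.6% of all genes passed in either direction.

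**Figure D2:**
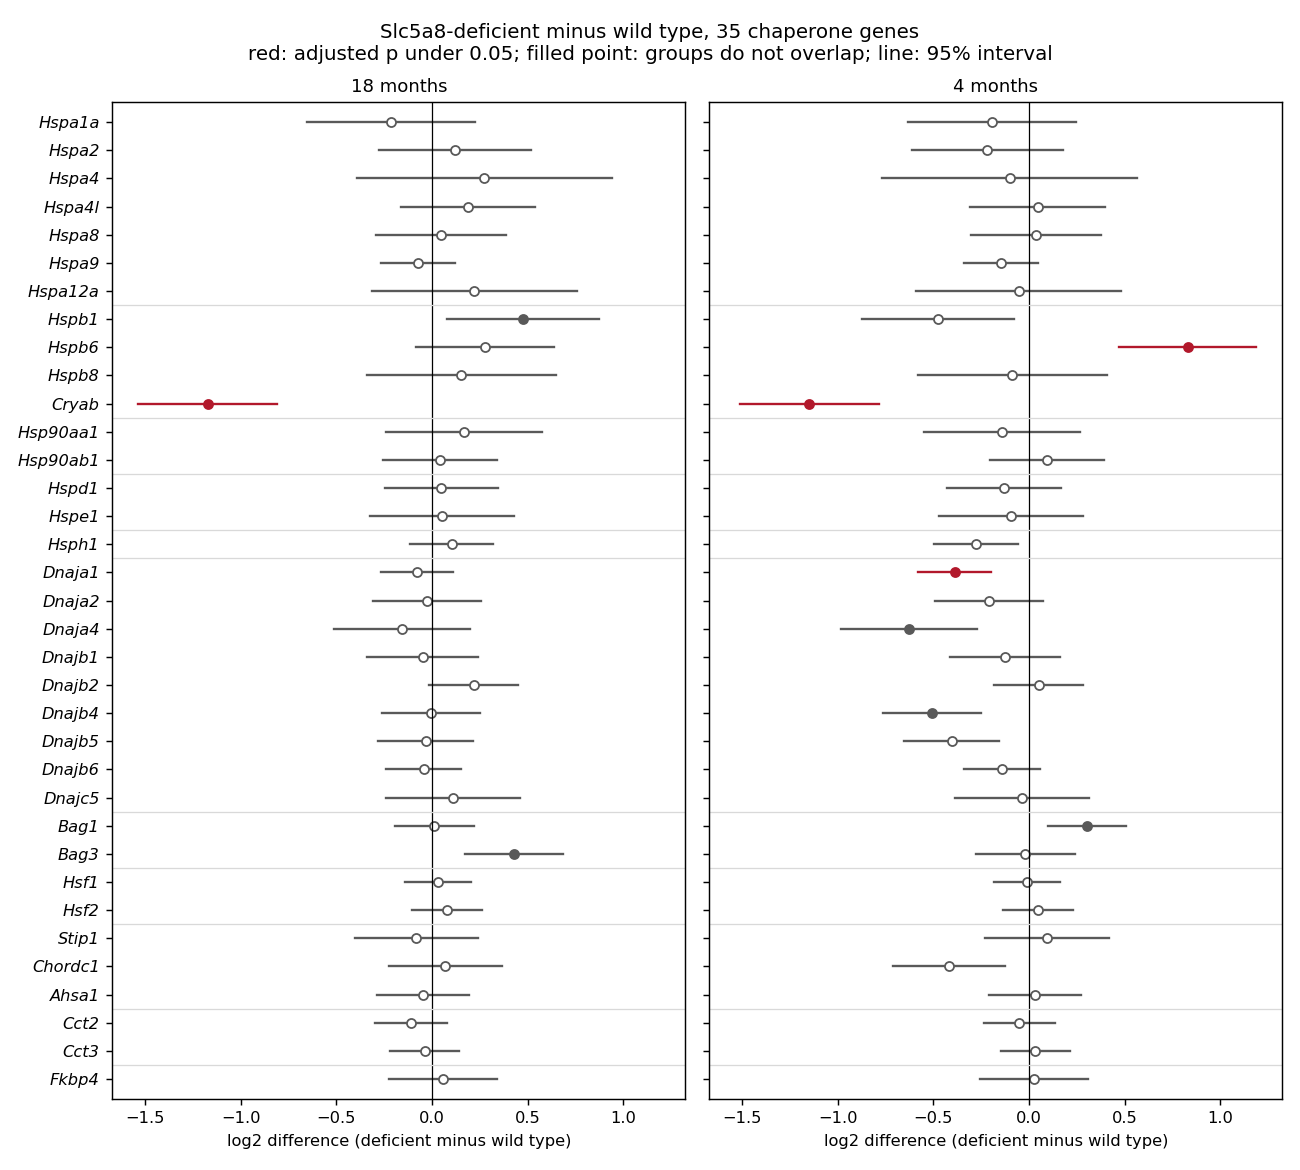
Log2 difference between deficient and wild-type mice (horizontal axis) for each of the 35 chaperone genes, at 18 months (left) and 4 months (right), with lines for the 95% interval, red for adjusted p under 0.05 and filled points where the 4 arrays of each group do not overlap. Cryab lies near -1.17 at 18 months and -1.15 at 4 months, while Hspb6 and Dnaja1 are red at 4 months only.

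Of the small heat shock proteins, Cryab is best known as a lens protein that is also made by oligodendrocytes and astrocytes, where it holds partly unfolded proteins and filaments. At 18 months its levels were 3.92, 3.93, 4.26 and 4.50 on the deficient arrays, against 5.18, 5.60, 5.33 and 5.18 on the wild-type arrays. At 4 months they were 4.61, 4.37, 4.15 and 3.95 on the deficient arrays, against 5.45, 5.13, 5.44 and 5.66 on the wild-type arrays. Every deficient array lay below every wild-type array, and the lowest wild-type level was 5.13 and the highest deficient level 4.61. The difference was -1.17 ± 0.17 at 18 months (adjusted p = 0.0020) and -1.15 ± 0.17 at 4 months (adjusted p = 0.0037). Averaged over age it was -1.16 ± 0.12 (adjusted p = 4.9e-05), or 2.23-fold lower in deficient brains. The other Cryab probe, the first of the sequences shown, fell by 1.26 at 18 months and by 1.04 at 4 months (adjusted p = 0.0061 and 0.029 over all probes kept). Cryab remained called at both ages under each of the 7 alternatives and without each array in turn, with differences between -1.29 and -1.04 when 1 array was left out. Between 18 and 4 months it differed by -0.12 ± 0.17 in deficient mice and by -0.10 ± 0.17 in wild-type mice, and the interaction was -0.02 ± 0.24 (adjusted p = 0.98).

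Markers of cell types that make alphaB-crystallin were set beside it. The 10 oligodendrocyte markers, such as Mbp and Mog, had a median difference of -0.16 at 18 months, with Mobp called higher (0.97) and Opalin called lower (-0.54), and of -0.03 at 4 months, with 0 called. Their summed log2 level ran from 8.18 to 8.41 in deficient mice at 18 months, from 8.25 to 8.44 in wild-type mice at 18 months, from 8.41 to 8.47 in deficient mice at 4 months and from 8.32 to 8.58 in wild-type mice at 4 months. These ranges overlap between the genotypes at both ages. The 6 astrocyte markers had a median difference of -0.04 at 18 months and 0.18 at 4 months, with 0 called at either age. Of the lens list 4 of 5 genes were measured, and Cryaa, the alphaA-crystallin that pairs with alphaB-crystallin in the lens, was higher in deficient brains, by 0.58 ± 0.12 averaged over age (adjusted p = 0.013). Cryaa was dim, with group means between -4.02 and -3.31, though well above background on all 16 arrays. Another lens gene, Cryba1, exceeded background on 0 arrays. The part of these cell types in the Cryab difference was not tested.

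Genes around Cryab also differed between the genotypes. Of 27 other genes with a kept probe within 1 Mb of the Cryab probe on chromosome 9, 9 were called in the average over both ages, which is 33.3% of them against 3.19% of all genes. Lower in deficient brains were Bco2, a carotenoid-cleaving enzyme of mitochondria (-1.92 ± 0.20), Pts, an enzyme of tetrahydrobiopterin synthesis (-1.22 ± 0.11), Plet1 (-0.77 ± 0.17), the hyaluronan receptor gene Layn (-0.57 ± 0.14) and Alg9, a mannosyltransferase of N-glycan assembly (-0.55 ± 0.12). Higher were C130081A10Rik (0.61 ± 0.07), 2010007H06Rik (0.47 ± 0.12), Nkapd1 (0.46 ± 0.07) and Ppp2r1b, a scaffold subunit of protein phosphatase PP2A (0.31 ± 0.08). The called genes lay on both sides of Cryab and moved in both directions. Between them were genes that were not called, among them Hspb2, the small heat shock protein gene nearest to Cryab, at 0.04 ± 0.10, which was chosen for mention after its value was seen. Bco2 and Pts fell at both ages. Of the 27 genes 3 (11.1%) were called at 18 months, against 1.47% of all genes. At 4 months 5 (18.5%) were called, against 1.53% of all genes. Whether the genomic interval bears on the Cryab difference was not tested.

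**Figure D3:**
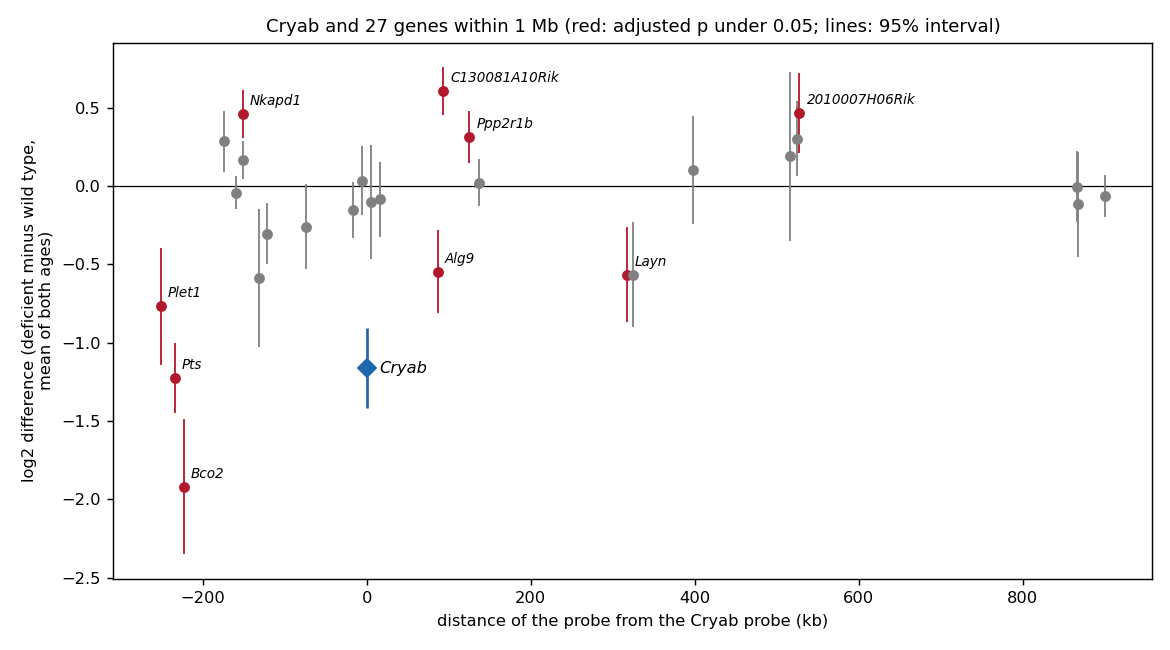
Log2 difference between deficient and wild-type mice, averaged over both ages (vertical axis), of Cryab (blue diamond) and 27 genes within 1 Mb, by the distance of their probes from the Cryab probe in kb (horizontal axis), with lines for the 95% interval. The 9 red genes have an adjusted p under 0.05, 5 below 0 and 4 above it, and Bco2 at -1.92 is lower than Cryab at -1.16.

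Hspb6 encodes HSP20, which is abundant in smooth, cardiac and skeletal muscle and is also made in astrocytes. At 4 months its levels were 1.88, 1.12, 1.31 and 1.42 in deficient mice, against 0.65, 0.39, 0.75 and 0.61 in wild-type mice. The groups did not overlap, with all 4 deficient arrays above all 4 wild-type arrays. The difference was 0.83 ± 0.17 (adjusted p = 0.026), or 1.78-fold higher. At 18 months the levels were 0.92, 0.45, 0.63 and 1.02 in deficient mice, against 0.39, 0.37, 0.35 and 0.81 in wild-type mice, which overlap, and the difference of 0.28 ± 0.17 was not called (adjusted p = 0.70). Averaged over age Hspb6 rose by 0.55 ± 0.12 (adjusted p = 0.019). The difference between the ages in the genotype effect was -0.55 ± 0.24, which did not pass the test (adjusted p = 0.44). Without replicate 1 of the 4-month deficient mice Hspb6 was still called at 4 months (0.68, adjusted p = 0.046). It was not called without replicate 1, 2 or 4 of the 4-month wild-type mice (adjusted p up to 0.080) or with no filter on dim probes (adjusted p = 0.062).

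Striated muscle markers were set beside Hspb6. Of the 6 listed, 4 were measured, while Mylpf was well above background on 0 arrays and Ckm on 2. At 4 months all 4 were above 0 in deficient minus wild-type mice, with a median of 1.10, and 1 of 4 was called, Tnnt3, a fast skeletal troponin gene, which rose by 1.81 ± 0.38 (adjusted p = 0.031). At 18 months 3 of the 4 were below 0, with a median of -0.32 and 0 called, while Hspb6 lay at 0.28. The median deviation of the 4 markers from their means ran from 0.27 to 1.64 on the deficient arrays and from -0.56 to -0.17 on the wild-type arrays, and from 0.27 to 0.84 without deficient replicate 1. At 4 months their summed log2 level ran from -0.04 to 1.05 in deficient mice and from -0.59 to -0.06 in wild-type mice. These ranges did not overlap, but only by a narrow margin. Acta1 was the brightest marker in the sum, with means at 4 months of -0.07 in deficient and -0.59 in wild-type mice. Mb, Myh1 and Tnnt3 were dim, with group means at 4 months between -4.82 and -3.01. Tnnt3 was well above background on 15 arrays. Smooth muscle and pericyte markers had a median difference of 0.15, and 0 of 6 were called. Within 1 Mb of the Hspb6 probe, at chr7:31340398-31340457, 79 other genes were measured and 6 (7.59%) were called in the average over both ages, against 3.19% of all genes, among them Arhgap33os (3.02), Zfp420 (0.60), Zfp74 (0.42), Zfp383 (-0.48) and Zfp566 (-0.47). The part of muscle transcripts or of the genomic interval in the Hspb6 difference was not tested.

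Hspb1, the heat-inducible small heat shock protein HSP25, was above wild type at 18 months and below it at 4 months, and neither difference passed the test. At 18 months its levels were 3.59, 4.05, 3.91 and 3.57 in deficient mice, against 3.54, 3.30, 3.23 and 3.13 in wild-type mice. At 4 months they were 2.47, 3.38, 3.23 and 3.24 in deficient mice, against 3.80, 3.66, 3.49 and 3.28 in wild-type mice. The 18-month groups did not overlap, by a margin of less than 0.1, whereas the 4-month groups did. The differences were 0.48 ± 0.19 at 18 months (adjusted p = 0.35) and -0.48 ± 0.19 at 4 months (adjusted p = 0.21), or -0.27 at 4 months without deficient replicate 1 (adjusted p = 0.38). The genotype effect differed between the ages by 0.95 ± 0.26 at an unadjusted p of 0.0026, which is the largest interaction among the 35 members, and the adjusted p was 0.22. Without deficient replicate 1 at 4 months the interaction was 0.75 (adjusted p = 0.20). Hspb8, which works with the cochaperone BAG3 to route misfolded proteins to autophagy, differed by 0.15 ± 0.23 at 18 months and -0.09 ± 0.23 at 4 months.

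**Figure D4:**
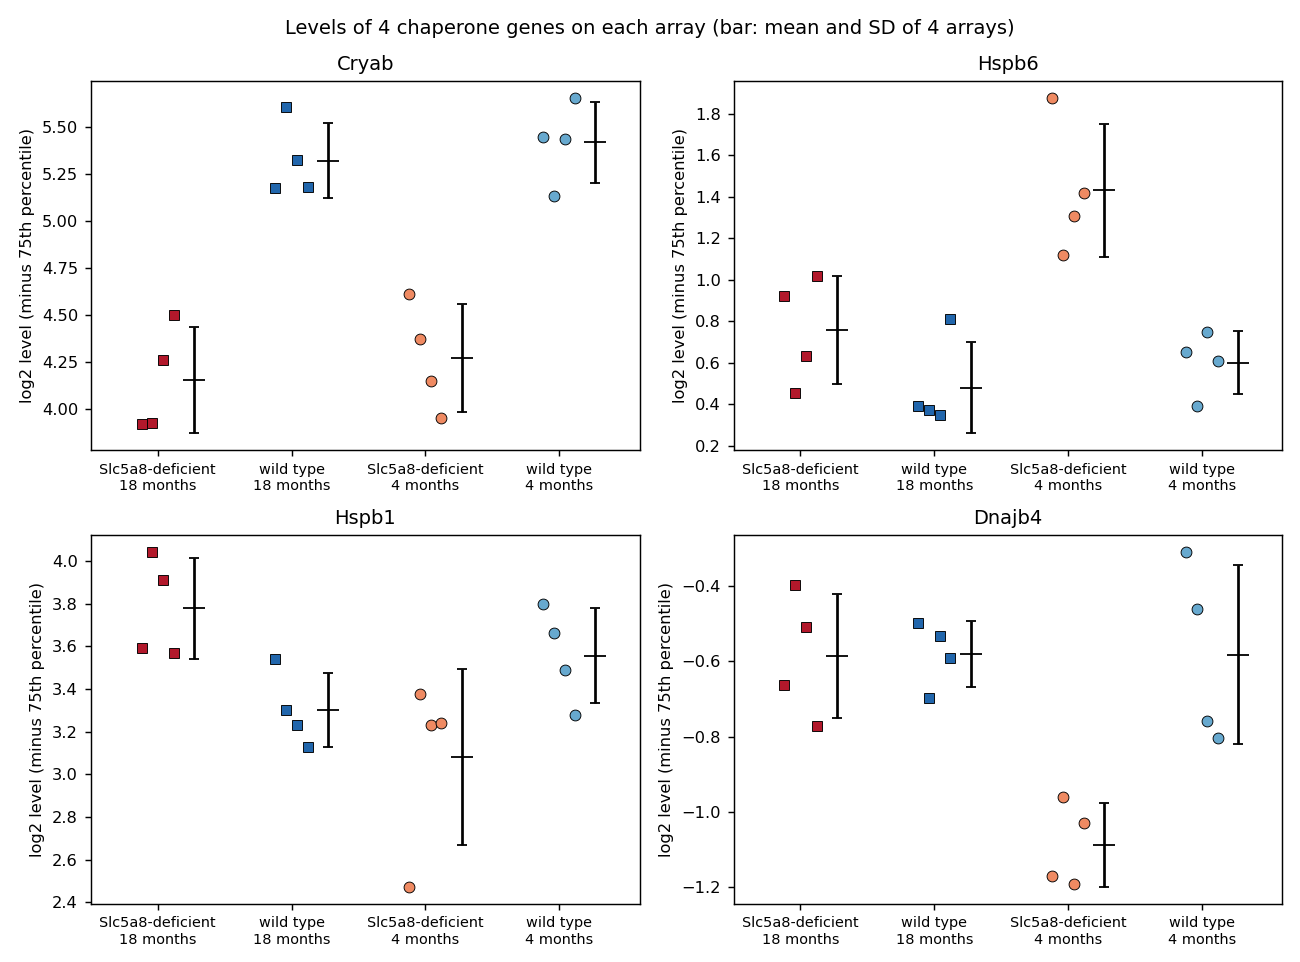
Log2 level on each array (points, 4 per group) of Cryab, Hspb6, Hspb1 and Dnajb4, by group along the horizontal axis, with the mean and SD of each group beside the points. Cryab is lower on every deficient array than on every wild-type array, while Hspb6 is highest and Dnajb4 lowest in the deficient mice at 4 months.

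The J-proteins choose clients for HSP70, and at 4 months 8 of 9 lay below 0 in deficient minus wild-type mice, with a median of -0.21 and 1 called. At 18 months 7 of 9 lay below 0, with a median of -0.03 and 0 called by limma (0 at an unadjusted p under 0.05). Over all genes 46.5% lay below 0 at 4 months and 48.8% at 18 months, with medians of 0.02 and 0.01. Dnaja1, a J-protein of the cytosol, had levels of 4.90, 5.02, 4.99 and 4.94 in deficient mice at 4 months, against 5.35, 5.42, 5.28 and 5.36 in wild-type mice. These groups did not overlap and each spread over less than 0.2. The difference was -0.39 ± 0.09 (adjusted p = 0.043), or 1.31-fold lower. It was not called with normexp background correction (adjusted p = 0.072), with no filter on dim probes (0.098), with replicate number as a block (0.079) or without 12 of the 16 arrays (up to 0.11), which were all 8 arrays of the 4-month mice, deficient replicates 1, 2 and 4 at 18 months and wild-type replicate 1 at 18 months. A second and dimmer Dnaja1 probe gave -0.01 (adjusted p = 0.97 over all probes kept), and the mean of both probes gave -0.20 (adjusted p = 0.18), so the call rests on 1 of the 2 probes. At 18 months Dnaja1 differed by -0.08 ± 0.09.

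Dnajb4 and Dnaja4, also partners of cytosolic HSP70, did not overlap between the genotypes at 4 months and just missed the threshold. Dnajb4 had levels of -1.17, -0.96, -1.19 and -1.03 in deficient mice, against -0.31, -0.46, -0.76 and -0.80 in wild-type mice. The difference was -0.51 ± 0.12 (adjusted p = 0.0501), and it was called in the authors' deposited value table (adjusted p = 0.040), with the filter on all 16 arrays (0.048), with the mean of probes (0.048) and without wild-type replicate 4 (0.047). Dnaja4 had levels of 2.31, 3.02, 2.96 and 2.89 in deficient mice, against 3.26, 3.71, 3.48 and 3.25 in wild-type mice, a difference of -0.63 ± 0.17 (adjusted p = 0.075). Without deficient replicate 1 that difference was -0.46 (adjusted p = 0.13), and a dim second Dnaja4 probe gave -0.06. At 18 months Dnajb4 differed by -0.01 ± 0.12 and Dnaja4 by -0.16 ± 0.17.

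Dnajb5 and Dnajb6 gave different answers by probe. Dnajb6 suppresses aggregation of polyglutamine proteins and is made as several isoforms. Its probe at transcript position 500, shown above, read 1.37, 1.61, 1.60 and 1.88 in deficient mice at 4 months, against 2.50, 2.35, 2.02 and 2.13 in wild-type mice. These groups did not overlap, and the difference of -0.64 ± 0.13 was called (adjusted p = 0.027 over all probes kept). The probe at position 376 gave -0.57 ± 0.14 (adjusted p = 0.052). Both probes that start at positions 2544 and 2550 of another Dnajb6 transcript, the first of which stood for the gene, gave -0.14 and -0.16, and neither was called. Averaged over age the probes at positions 376 and 500 both fell, each by 0.40 (adjusted p = 0.032 and 0.027). The probe that stood for Dnajb5 gave -0.40 ± 0.12 at 4 months (adjusted p = 0.096) and -0.03 ± 0.12 at 18 months. A dim second Dnajb5 probe gave -0.87 ± 0.18 at 18 months (adjusted p = 0.022 over all probes kept) and -0.42 ± 0.18 at 4 months (adjusted p = 0.24). In the authors' deposited value table Dnajb5 was called at 4 months (-0.47, adjusted p = 0.041). With the mean of probes, Dnajb5 (-0.43, adjusted p = 0.011) and Dnajb6 (-0.25, adjusted p = 0.037) were called averaged over age. Dnajb6 was then also called at 4 months (-0.38, adjusted p = 0.041).

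Dnajc5 encodes the cysteine string protein that guards synaptic vesicle proteins, and its level was between 6.12 and 6.89 on all arrays. It differed by 0.11 ± 0.16 at 18 months and -0.04 ± 0.16 at 4 months. The dimmer Dnajc5 probes leaned higher in deficient mice at 4 months, with overlap. The probe at transcript position 736 ran from -0.81 to -0.21, against -1.13 to -0.80 in wild-type mice. That at position 1055 ran from -0.06 to 0.20, against -0.33 to 0.11. The dimmest, at position 51, read -1.08 on deficient replicate 1 and -6.05 to -5.40 on the other deficient arrays, against -6.40 to -5.46. The heat-inducible Dnajb1 had levels of 5.13, 5.25, 5.34 and 5.06 in deficient mice at 18 months, against 5.45, 5.37, 5.34 and 4.81 in wild-type mice, and of 5.14, 5.13, 4.85 and 4.82 in deficient mice at 4 months, against 5.16, 4.98, 5.09 and 5.22 in wild-type mice. Its groups overlapped at both ages, with differences of -0.05 ± 0.14 and -0.13 ± 0.14. Dnaja2 and Dnajb2, a neuronal J-protein that sorts clients to the proteasome, differed by -0.02 and 0.22 at 18 months and by -0.21 and 0.05 at 4 months, none of them called.

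None of the 8 measured HSP70 and HSP110 genes was called in either genotype comparison by limma, and 0 of 8 at 18 months and 1 of 8 at 4 months, Hsph1, had an unadjusted p under 0.05, where 9.91% and 17.4% of all genes had one. The probe shared by Hspa1a and Hspa1b, the genes most strongly induced by heat, read -0.14, 0.10, -0.02 and -0.28 in deficient mice at 18 months, against 0.31, 0.46, -0.07 and -0.17 in wild-type mice. At 4 months it read 0.26, -0.48, -0.59 and -0.67 in deficient mice, against 0.22, -0.33, -0.44 and -0.15 in wild-type mice. The groups overlapped at both ages, and the differences of -0.22 ± 0.21 and -0.19 ± 0.21 had 95% intervals of -0.65 to 0.22 and -0.63 to 0.25. Hspa8, the constitutive HSP70 that strips clathrin from vesicles, averaged 7.47 ± 0.10 in deficient mice and 7.43 ± 0.34 in wild-type mice at 18 months, and 7.46 ± 0.17 in deficient mice and 7.42 ± 0.24 in wild-type mice at 4 months (SD, n = 4 each). Its differences of 0.05 and 0.04 had 95% intervals of -0.29 to 0.39 and -0.30 to 0.38. These values are from the brightest Hspa8 probe. At 4 months the probe at transcript position 1812 leaned lower in deficient mice, at 6.31 to 6.45 against 6.40 to 6.74. That at position 730 leaned higher, at 4.20 to 4.57 against 4.09 to 4.44. Both overlapped between the genotypes. Hsph1, the HSP110 that recycles HSP70, averaged 5.27 ± 0.12 in deficient mice and 5.16 ± 0.10 in wild-type mice at 18 months, and 5.04 ± 0.14 in deficient mice and 5.32 ± 0.14 in wild-type mice at 4 months. Its difference at 4 months was -0.28 ± 0.10 (adjusted p = 0.19). Hspa4 and Hspa4l, which are nucleotide exchange factors too, the testis-enriched Hspa2, the mitochondrial Hspa9 and the distant relative Hspa12a had differences between -0.07 and 0.27 at 18 months and between -0.22 and 0.05 at 4 months.

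The HSP90 pair and its cochaperones were not called either. Hsp90ab1, the constitutive form, averaged 7.30 ± 0.09 in deficient mice and 7.26 ± 0.13 in wild-type mice at 18 months, and 7.44 ± 0.33 in deficient mice and 7.35 ± 0.15 in wild-type mice at 4 months. Hsp90aa1, the inducible form, differed by 0.17 ± 0.19 at 18 months and -0.14 ± 0.19 at 4 months. Chordc1, a cochaperone of HSP90, averaged 1.85 ± 0.19 in deficient mice and 2.27 ± 0.25 in wild-type mice at 4 months, and the difference of -0.42 ± 0.14 did not pass the test (adjusted p = 0.14). Ahsa1, which speeds up the HSP90 ATPase, Stip1, the adaptor between HSP70 and HSP90, and the immunophilin Fkbp4 lay between -0.08 and 0.06 at 18 months and between 0.03 and 0.09 at 4 months.

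Among the nucleotide exchange factors of the BAG family, Bag3 was the higher one at 18 months and Bag1 at 4 months, neither of them called. Bag3, the partner of Hspb8 in selective autophagy, read 1.58, 1.68, 1.83 and 1.58 in deficient mice at 18 months, against 1.38, 1.32, 1.29 and 0.97 in wild-type mice. These groups did not overlap and differed by 0.43 ± 0.12 (adjusted p = 0.11), while at 4 months the difference was -0.02 ± 0.12. Bag1 read 6.43, 6.12, 6.10 and 6.10 in deficient mice at 4 months, against 5.80, 5.86, 5.92 and 5.95 in wild-type mice. The groups did not overlap and differed by 0.30 ± 0.10 (adjusted p = 0.12), or by 0.22 without deficient replicate 1 (adjusted p = 0.20). The other Bag1 probe, which shares part of its sequence with this one, did overlap between the genotypes at 4 months. It read 4.27, 4.57, 4.62 and 4.47 in deficient mice, against 4.36, 4.38, 4.36 and 4.00 in wild-type mice. At 18 months Bag1 differed by 0.01 ± 0.10.

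No chaperonin or heat shock factor was called, and their differences lay between -0.13 and 0.08 at both ages. Hspd1 and Hspe1, the mitochondrial chaperonin and its lid, differed by 0.05 each at 18 months and by -0.13 and -0.10 at 4 months. Hspd1 averaged 4.67 ± 0.16 in deficient mice and 4.62 ± 0.15 in wild-type mice at 18 months, and 4.53 ± 0.26 in deficient mice and 4.66 ± 0.20 in wild-type mice at 4 months. Cct2 and Cct3, subunits of the cytosolic chaperonin that folds actin and tubulin, lay between -0.11 and 0.03 at both ages. Hsf1, the main activator of the heat shock response, averaged 1.65 ± 0.05 in deficient mice and 1.62 ± 0.06 in wild-type mice at 18 months, and 1.76 ± 0.11 in deficient mice and 1.78 ± 0.09 in wild-type mice at 4 months. Its 95% intervals were -0.14 to 0.21 and -0.18 to 0.16. Hsf2 differed by 0.08 ± 0.09 and 0.05 ± 0.09. The 3 members with the 13-base motif, Dnajb6, Hspd1 and Hspe1, had a median difference of 0.05 at 18 months and -0.13 at 4 months by the probes that stood for them, against medians of 0.06 and -0.09 for the 25 measured members whose promoters lacked it. The medians at 4 months were -0.01 with the motif and -0.06 without it when deficient replicate 1 of that age was left out.

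Counted without a threshold, members above wild type in deficient mice numbered 21 of 35 at 18 months, with a median of 0.05, and 11 of 35 at 4 months, with a median of -0.10. Over all genes 51.2% and 53.5% lay above wild type. At 18 months the groups did not overlap for 2 members that were higher, Hspb1 and Bag3, where 4.45% of all genes were non-overlapping and higher. Cryab was the 1 member that was lower without overlap, where 3.65% of all genes were. At 4 months 2 were higher without overlap (4.65% of all genes) and 4 lower (4.81% of all genes), namely Cryab, Dnaja1, Dnaja4 and Dnajb4. These counts use the probe that stood for each gene. Without deficient replicate 1 at 4 months the median was -0.07, and 2 were higher and 5 lower without overlap, where 8.19% of all genes were higher and 8.35% lower with these 3 arrays against 4. Red blood cell markers, whose levels are given below, had a median difference of -1.99 at 18 months, with 3 of 5 called lower, and of -0.02 at 4 months, with 0 called, and their part in the chaperone differences was not tested.

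The second comparison asked how the chaperones differ between 18 and 4 months within each genotype. In deficient mice Dnajb4 rose and Hspb6 fell, which makes 2 of 35 members called where 550 of 23032 genes (2.39%) were called. In wild-type mice 0 of 35 were called by limma, where 97 genes (0.421%) were called, and 0 had an unadjusted p under 0.05, where 6.35% of all genes had one. Averaged over genotype 0 of 35 were called, where 371 genes (1.61%) were called, and at an unadjusted p under 0.05 there were 2 higher and 3 lower members, where 14.8% of all genes passed in either direction. The deficient mice at 4 months enter both the genotype comparison at 4 months and the age comparison in deficient mice, so these are not independent of each other.

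**Figure D5:**
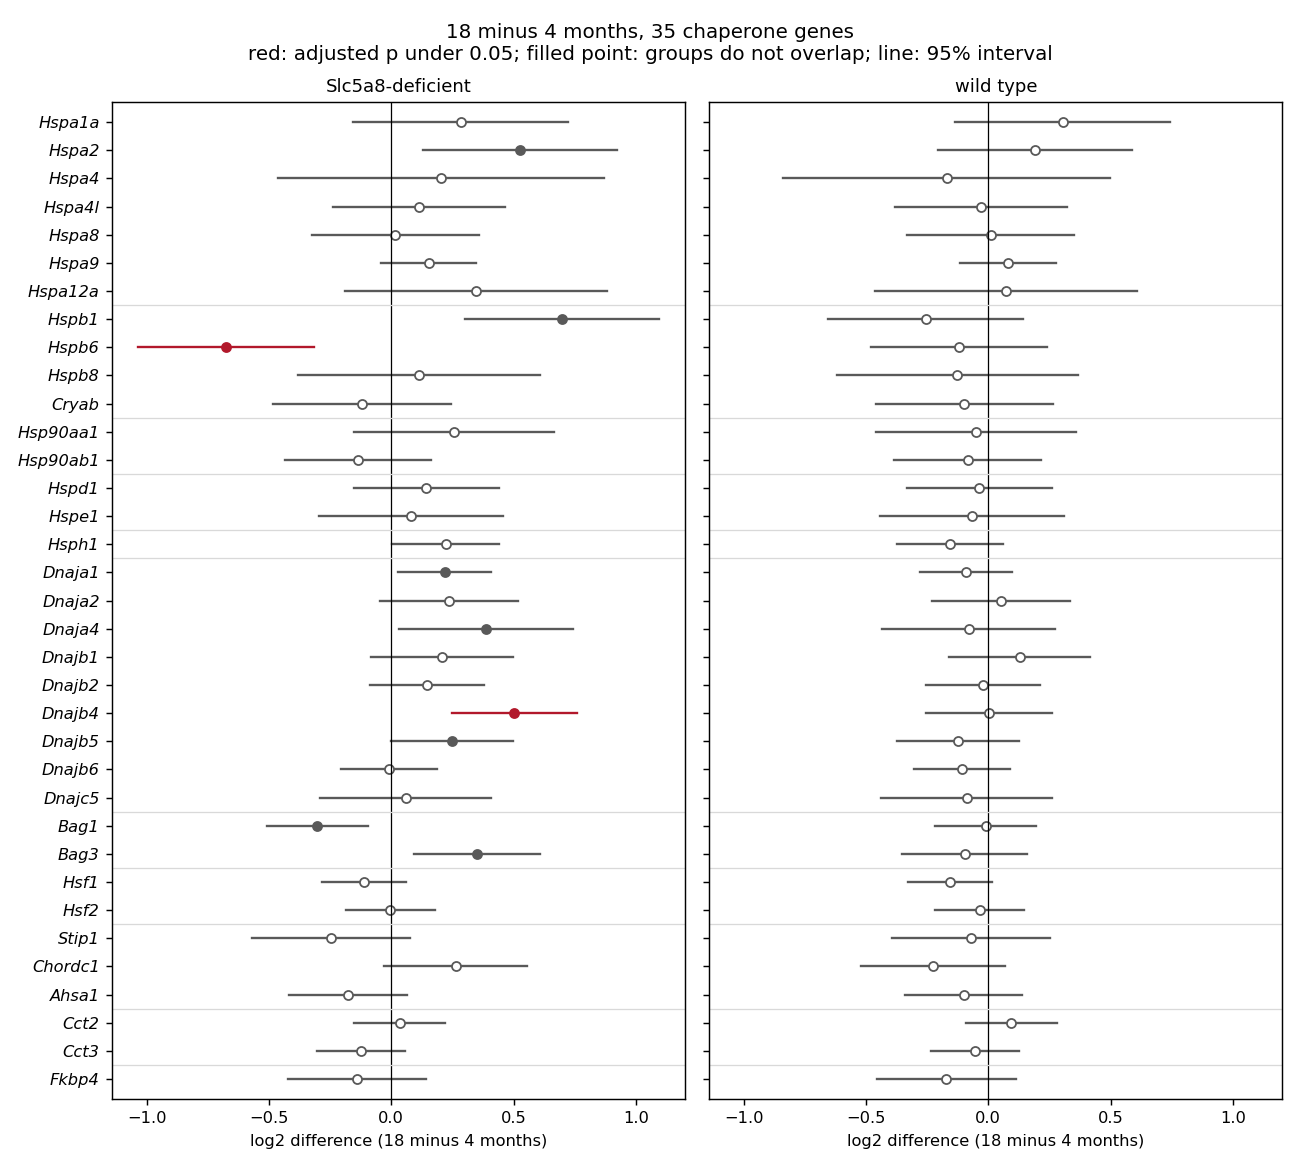
Log2 difference between 18 and 4 months (horizontal axis) for each of the 35 chaperone genes, in deficient mice (left) and wild-type mice (right), with lines for the 95% interval, red for adjusted p under 0.05 and filled points where the 4 arrays of each age do not overlap. In deficient mice 24 of 35 points lie above 0 and Dnajb4 and Hspb6 are red, while in wild-type mice 26 lie below 0 and none is red or filled.

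In deficient mice Dnajb4 read -0.66, -0.40, -0.51 and -0.77 at 18 months, against -1.17, -0.96, -1.19 and -1.03 at 4 months, without overlap. It rose by 0.50 ± 0.12 (adjusted p = 0.043), or 1.42-fold. In wild-type mice it read -0.50, -0.70, -0.53 and -0.59 at 18 months, against -0.31, -0.46, -0.76 and -0.80 at 4 months, and the difference was 0.00 ± 0.12. The call was lost with normexp background correction (adjusted p = 0.057), with no filter on dim probes (0.097), with replicate number as a block (0.072) and without 10 of the 16 arrays (up to 0.14), which were all 8 deficient arrays, wild-type replicate 1 at 18 months and wild-type replicate 3 at 4 months. The interaction of 0.50 ± 0.17 did not pass the test (adjusted p = 0.32).

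Hspb6 fell by 0.67 ± 0.17 between 18 and 4 months in deficient mice (adjusted p = 0.0498), with 18-month levels of 0.45 to 1.02, against 1.12 to 1.88 at 4 months. In wild-type mice the difference was -0.12 ± 0.17. Without deficient replicate 1 at 4 months it was -0.53 (adjusted p = 0.10), and of the 16 fits with 1 array left out it was called in 2, those without deficient replicate 2 at 4 months and without wild-type replicate 4 at 18 months. The 4 measured striated muscle markers had a median of -1.37 here, and 1 of 4 was called, the dim Tnnt3, which fell by 2.08 ± 0.38 (adjusted p = 0.012). In wild-type mice their median was 0.27, with 0 called, and their part was not tested.

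In deficient mice 7 members were higher without overlap at 18 months, where 7.81% of all genes were, and 2 were lower, where 10.1% of all genes were. The higher ones were Hspa2 (0.53), Hspb1 (0.70), Dnaja1 (0.22), Dnaja4 (0.39), Dnajb4 (0.50), Dnajb5 (0.25) and Bag3 (0.35), and the lower ones Hspb6 and Bag1 (-0.30). Counts in this paragraph use the probes that stood for the genes. A dimmer Dnaja1 probe ran from -1.30 to -1.05 at 18 months, against -1.06 to -0.86 at 4 months. A dim Dnajb5 probe ran from -3.41 to -3.12, against -3.15 to -2.50. Both leaned lower at 18 months, with overlap. The dim Dnaja4 probe leaned higher, with overlap. The other Bag1 probe overlapped too, at 4.24 to 4.52 against 4.27 to 4.62. Hspb1 had an adjusted p of 0.061, or 0.11 without deficient replicate 1 at 4 months, where its difference was 0.50. In wild-type mice the ages overlapped for all 35 members, where 1.32% of all genes were higher and 2.17% lower without overlap. All 8 measured HSP70 and HSP110 genes and 8 of 9 J-proteins lay above 0 in deficient mice, with medians of 0.21 and 0.22, against medians of 0.04 and -0.08 in wild-type mice. The smallest of the 8 was 0.02, for Hspa8. Its dimmest probe leaned lower at 18 months, at 3.67 to 4.51 against 4.20 to 4.57. So did the dimmer Dnajb2 probe, at 0.18 to 0.45 against 0.11 to 0.94. The Dnajc5 probe at position 736 was lower without overlap, at -1.01 to -0.82 against -0.81 to -0.21. Without deficient replicate 1 at 4 months 6 of the 8 HSP70 and HSP110 genes lay above 0 in deficient mice, with a median of 0.11, and 8 of 9 J-proteins did, with a median of 0.20. Over the 35 members the median was 0.14 in deficient mice, where 24 lay above 0 (48.2% of all genes), and -0.07 in wild-type mice, where 9 did (50.3% of all genes). Without deficient replicate 1 at 4 months the median in deficient mice was 0.07, with 22 of 35 above 0 and 8 higher and 3 lower without overlap, where 11.1% of all genes were higher and 14.4% lower with 4 arrays against 3. The medians of all genes were -0.01 and 0.00.

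Red blood cell markers differed between the same groups. All 5 listed genes were well above background on all 16 arrays, and in deficient mice 4 of 5 fell between 18 and 4 months, with a median of -2.25. Alas2, which starts heme production in erythroid cells, fell by 2.75 ± 0.53 (adjusted p = 0.015). The summed log2 level of the 5 ran from 4.14 to 6.39 in deficient mice at 18 months, against 6.41 to 8.31 in deficient mice at 4 months, and from 6.51 to 7.25 in wild-type mice at 18 months, against 6.88 to 7.43 in wild-type mice at 4 months. The highest value was that of deficient replicate 1 at 4 months. The part of blood in the age differences of the chaperones was not tested.

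Other genes of the same pathways were looked up as lists. Of 56 further chaperones and cochaperones 54 were measured. At 18 months 1 was called in deficient minus wild-type mice, the dim Cryaa (0.71 ± 0.17, adjusted p = 0.048), where 1.47% of all genes were called. At 4 months 0 were called by limma. At an unadjusted p under 0.05 there were 4 higher and 7 lower at 4 months, where 17.4% of all genes passed in either direction. Averaged over age Cryaa and Nudc, a cochaperone linked to dynein (0.50 ± 0.11, adjusted p = 0.021), rose, and Cct4, a subunit of the same chaperonin as Cct2 and Cct3, fell by 0.28 ± 0.07 (adjusted p = 0.048). Between the ages 0 of the 54 were called in deficient mice, with 7 higher and 2 lower at an unadjusted p under 0.05, where 21% of all genes passed. In wild-type mice 0 were called, with 1 higher and 1 lower at that unadjusted p, where 6.35% of all genes passed. The medians of the list stayed between -0.03 and 0.05 in these comparisons.

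Of the cold-inducible RNA-binding proteins Cirbp and Rbm3, which respond to lower temperature, Cirbp was called. At 4 months it read 3.80, 3.86, 3.83 and 3.96 in deficient mice, against 3.48, 3.32, 3.55 and 3.32 in wild-type mice, and rose by 0.45 ± 0.10 (adjusted p = 0.048). It rose by 0.54 ± 0.10 between 18 and 4 months in wild-type mice (adjusted p = 0.035), and at 18 months the genotypes differed by -0.33 ± 0.10, which was not called.

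Among 16 immediate early genes, which rise within minutes of neuronal activity or handling, 0 were called at either age between genotypes by limma. At an unadjusted p under 0.05 there were 1 higher and 2 lower at 18 months, where 9.91% of all genes passed in either direction. At 4 months there were 0 higher and 4 lower, where 17.4% of all genes passed. Averaged over genotype Fosb rose by 0.61 ± 0.14 between 18 and 4 months (adjusted p = 0.048). Of 10 glucocorticoid-responsive genes Zbtb16 rose in deficient brains by 0.91 ± 0.18 at 18 months (adjusted p = 0.016) and by 0.91 ± 0.18 at 4 months (adjusted p = 0.021). The list as a whole did not follow it. At 4 months 8 of the 10 lay below 0, with a median of -0.17, where 46.5% of all genes did. At 18 months 4 of the 10 lay below 0, with a median of 0.07, where 48.8% of all genes did. In deficient mice Pdk4 and Per1 rose by 0.60 ± 0.10 and 0.71 ± 0.14 between 18 and 4 months (adjusted p = 0.0073 and 0.021). The part of these responses in the chaperone levels was not tested.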

How the data were processed

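The submitters hybridised whole-brain RNA to 16 single-colour Agilent arrays. Per the file headers, the scanner software Feature Extraction (10.7.3.1) made the spot intensities, and its processed signal is background-corrected. The authors' deposited value table holds normalised log2 values, a scale inferred by setting it against the scanner values. The submitters' processing notes name limma, with no version here. The labels' build is NCBI37.

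Here log2 processed signals were centred on each array's 75th percentile, and control spots and outlier flags were left out. Spots of 1 probe were averaged. A probe was kept if well above background on all 4 arrays of a group, and the kept probe with the highest mean stood for its gene. Tests came from limma 3.58.1 in R 4.3.3 on 1 mean per group (lmFit, eBayes, 12 residual degrees of freedom), with Benjamini-Hochberg adjustment over 23032 genes in each of 7 contrasts. The scripts were tested on simulated data.

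The members, lists and tests were chosen with earlier results of these data known. Given in full are members called in any contrast, Hspa1a, Hspb1, Dnajb1 and Hsph1, and the member of each role with the highest level. Other members are named so that each is accounted for. Alternatives were normexp background correction (offset 50), quantile normalisation, the deposited table, a filter on all 16 arrays, no filter, the mean of probes, a replicate block and leaving out each array. Counts of directions, medians by role and motif, and groups that do not overlap, without replicate 1 of the 4-month deficient mice, were added after seeing the data. Equal replicate numbers showed no sign of pairing the arrays. Sequences are from the scanner files and RefSeq (GRCm38.p6). Some results of the lists and of neighbouring genes are not reported here.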

Additional observations from a re-analysis of the deposited data

Results flagged for a closer look

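In 9 of 140 sets of 4 arrays, 1 array lay far from the other 3, by Dixon's criterion, which chance meets in about 1 of 20 groups. Replicate 1 of the deficient mice at 4 months gave 6 of the 9. It was low for Hspa2 at 1.17 (nearest 1.96), Hspa4l at 3.07 (nearest 3.76), Hspb1 at 2.47 (nearest 3.23), Hsp90aa1 at 5.32 (nearest 6.22) and Hspe1 at 3.54 (nearest 4.29), and high for Bag1 at 6.43 (nearest 6.12). On the other Bag1 probe the same array was instead the lowest of its group, at 4.27 against 4.47 to 4.62. Among wild-type mice at 18 months, replicate 2 was low for Hspa4l at 3.27 (nearest 3.63). Replicate 4 of that group was high for Hspb6 at 0.81 (nearest 0.39) and low for Dnajb1 at 4.81 (nearest 5.34).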

How the results depend on the processing

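No called result changed direction under the 7 alternatives or when an array was left out. In deficient mice between 18 and 4 months the 2 members called became 0 with normexp background correction, 0 with no filter on dim probes and 0 to 2 when 1 array was left out. Deficient minus wild type at 4 months, the 3 called became 5 with the deposited value table, 1 with no filter, and 1 to 3 when 1 array was left out. Calls over all genes also rose with the deposited table, from 353 to 455. Averaged over age, the 2 called became 4 with the mean of probes, and 2 or 3 when 1 array was left out. Calls over all genes also rose with the mean of probes, from 734 to 826. The cause was not tested. At 18 months 1 was called throughout, and for the interaction, for age in wild-type mice and for age averaged over genotype 0 were called throughout. With replicate number as a block, the members called between the ages in deficient mice became 1. No pairing by number was seen, though these values cannot exclude it. Deviations of same-numbered arrays correlated between -0.44 and 0.27 in 24 pairs, and 4 of 16 arrays correlated best with their own number. The replicate number is also the place of each array within its line, so the block is a block on position as well. The block left the other counts of members within 1.5 times. Over all genes, 353 calls at 4 months became 142 with no filter and 197 with the block, 338 at 18 months became 225 with no filter, 550 between ages in deficient mice became 221, 282 and, with normexp, 359, 734 averaged over age became 453 with no filter, 97 for age in wild-type mice became 54 with normexp, 371 for age averaged over genotype became 247 with normexp and 214 with no filter, and 43 for the interaction became 22 with no filter and 25 with the block. When 1 of the 16 arrays was left out, calls over all genes ran from 108 to 408 at 4 months, 178 to 517 at 18 months, 499 to 946 averaged over age, 156 to 657 between ages in deficient mice, 58 to 130 in wild-type mice, 193 to 449 averaged over genotype and 21 to 65 for the interaction. Signal over background limits the dim probes.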
